A study of Mus musculus with 2 samples.

Results

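Gene-desert peaks were Notch1 binding peaks that overlapped no protein-coding gene body and whose nearest edge lay over 100 kb from the start site of every protein-coding gene. They numbered 1015 of the 5910 peaks on nuclear chromosomes, a share of 17.2% (Wilson 95% interval 16.2 to 18.2). All came from 1 library, made by chromatin immunoprecipitation and sequencing (ChIP-seq) with the rabbit monoclonal antibody D1E11 against Notch1. The cells were primary gamma delta T cells, lymphocytes whose antigen receptor pairs a gamma with a delta chain, taken on postnatal day 0 to 3 from the thymus of C57BL/6 mice of wild-type genotype. An input library of the same kind of cells, made without antibody, was not analysed here, and the number of mice behind each library is not given in the sources used here. The series set out to map where the intracellular domain of Notch1 (ICN1) sits on DNA. No replicate of the Notch1 library stands beside it, so the tests below compare peaks with peaks, and their intervals cover counting error only. Positions are those of mouse build mm10, and start sites and gene bodies are those of GENCODE release M21. Each peak carried a score set by the authors, whose scale is not given, so it served only to rank peaks within the list. Two-sided Fisher's exact tests set the gene-desert peaks against the 720 intergenic peaks that lay 25 to 100 kb from a start, the nearest neighbours by the same rule, and against all 4895 other nuclear peaks. A peak list holds no expression values, so the label of the cells could not be checked on expressed markers.

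Notch1 is a surface receptor. On contact with its ligand it is cut, and the freed intracellular domain enters the nucleus, where it has no DNA-binding domain of its own and is held to DNA by the protein RBPJ. RBPJ reads a short core, TGGGAA, on either strand. In the thymus the Notch pathway is known for committing progenitors to the T lineage and for driving targets such as Myc, Hes1 and Gata3. Gene deserts are long stretches between protein-coding genes, and those beside developmental regulators are known to hold enhancers that act over long distances.

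The sequences below come from peaks of genes with a role in T cells, from some of the gene-desert peaks of high score with an extended RBPJ site (TGTGGGAA or CGTGGGAA), and from 1 peak that resembles ribosomal RNA. They range from RBPJ sites in unique sequence to peaks with no listed core. As they were picked by gene, score and RBPJ site, they hold RBPJ sites more often than the class does. In the central 400 bp of all gene-desert peaks, the core was found in 27.6% and the extended site in 2.56%. All were read from the RefSeq copy of GRCm38, the assembly behind mm10, on the plus strand. Capitals mark the RBPJ core, the RUNX site (TGTGGTT, its variant TGTGGTC, or either of these with C as the base after TG) and the ETS site (ACAGGAAG or ACCGGAAG) on either strand.
Between Satb1 and Kcnh8, chr17:52282311-52282570: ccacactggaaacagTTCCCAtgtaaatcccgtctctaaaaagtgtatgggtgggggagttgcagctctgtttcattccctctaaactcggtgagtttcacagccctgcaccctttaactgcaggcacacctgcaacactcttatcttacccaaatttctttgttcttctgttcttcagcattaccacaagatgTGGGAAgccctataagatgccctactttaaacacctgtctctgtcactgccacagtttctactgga
Map3k1, chr13:112000619-112000878: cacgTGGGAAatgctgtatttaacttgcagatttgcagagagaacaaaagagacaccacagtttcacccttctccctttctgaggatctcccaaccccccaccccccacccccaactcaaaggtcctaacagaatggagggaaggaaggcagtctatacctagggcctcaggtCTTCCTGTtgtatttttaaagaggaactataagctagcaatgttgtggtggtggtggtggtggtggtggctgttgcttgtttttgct
Between Tnfaip3 and Olig3, inside Gm20139, chr10:19186266-19186525: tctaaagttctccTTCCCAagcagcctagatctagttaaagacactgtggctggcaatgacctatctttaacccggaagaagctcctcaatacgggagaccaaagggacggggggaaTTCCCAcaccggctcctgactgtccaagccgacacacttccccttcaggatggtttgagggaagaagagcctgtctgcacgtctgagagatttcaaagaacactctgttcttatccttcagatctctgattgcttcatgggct
Between Ets2 and Psmg1, inside 1600002D24Rik, chr16:95860957-95861216: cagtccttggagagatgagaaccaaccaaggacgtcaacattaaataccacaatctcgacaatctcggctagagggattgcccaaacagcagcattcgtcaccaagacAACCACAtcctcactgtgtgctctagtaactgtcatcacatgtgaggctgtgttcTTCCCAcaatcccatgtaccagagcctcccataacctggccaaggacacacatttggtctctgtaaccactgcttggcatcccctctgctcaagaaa
Ets1, inside Gm27162, with an extended RBPJ site, chr9:32925761-32926020: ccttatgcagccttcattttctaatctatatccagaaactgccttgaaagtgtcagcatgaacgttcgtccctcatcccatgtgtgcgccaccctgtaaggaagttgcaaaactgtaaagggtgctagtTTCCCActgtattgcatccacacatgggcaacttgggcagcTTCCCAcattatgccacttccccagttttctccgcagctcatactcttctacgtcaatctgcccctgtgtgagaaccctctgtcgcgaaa
Ets1, inside Gm27162, without an RBPJ core, chr9:32927999-32928258: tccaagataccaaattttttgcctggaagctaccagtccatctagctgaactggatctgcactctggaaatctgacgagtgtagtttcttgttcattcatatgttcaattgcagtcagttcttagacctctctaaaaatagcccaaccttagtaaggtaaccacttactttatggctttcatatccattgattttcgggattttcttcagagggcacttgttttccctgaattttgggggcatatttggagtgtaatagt
Tox, chr4:7194847-7195073: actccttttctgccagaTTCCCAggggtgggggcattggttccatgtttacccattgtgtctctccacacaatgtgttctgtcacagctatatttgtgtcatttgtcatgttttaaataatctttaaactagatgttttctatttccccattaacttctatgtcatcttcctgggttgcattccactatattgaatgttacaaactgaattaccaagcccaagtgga
Id2, inside Gm36723, chr12:25389001-25389260: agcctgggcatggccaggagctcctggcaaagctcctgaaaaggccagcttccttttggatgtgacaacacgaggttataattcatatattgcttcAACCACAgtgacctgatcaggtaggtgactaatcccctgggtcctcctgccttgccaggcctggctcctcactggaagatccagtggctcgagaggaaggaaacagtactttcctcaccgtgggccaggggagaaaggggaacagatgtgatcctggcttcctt
Samd9l, resembling ribosomal RNA, chr6:3201377-3201636: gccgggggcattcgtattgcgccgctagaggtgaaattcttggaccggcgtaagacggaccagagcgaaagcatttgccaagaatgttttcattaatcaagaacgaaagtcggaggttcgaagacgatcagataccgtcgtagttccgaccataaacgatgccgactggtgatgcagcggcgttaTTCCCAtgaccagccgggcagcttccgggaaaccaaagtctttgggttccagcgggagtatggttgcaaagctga
The stretches of Kcnh8, Map3k1, Olig3 and Psmg1 and the first of Ets1 each held 1 extended RBPJ site. The second Ets1 stretch came from a peak of higher score than the first and held 0 RBPJ cores, 0 RUNX sites and 0 ETS sites.

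Several regulators of T cell fate were the nearest genes to gene-desert peaks. Of 23 genes followed by name, 9 were the nearest protein-coding start to at least 1 gene-desert peak, with 33 peaks in all: Ets1 had 9, Gata3 7, Myc 4, Satb1, Id2 and Tox 3 each, Runx1 2, and Hes1 and Lef1 1 each. The other 14, among them Bcl11b, Tcf7, Il7r, Ikzf1 and Runx3, had 0, as must any gene whose start is nearest to no desert sequence. Across the genome 641 of 21938 protein-coding genes, or 2.92%, were nearest to a gene-desert peak. Of the 3020 genes that own any desert sequence, meaning that theirs is the nearest start to it, the share was 21.2%. The 9 of 23 were not limited to genes that own desert sequence, and how many of the 23 own some was not counted. Neither share is thus a like background for them. Among 40 developmental transcription factors 20% were nearest to a gene-desert peak, at a peak density near that over all genes. Of the genes that own desert sequence, 52.4% of T lineage regulators were nearest to one, and 27.6% of developmental factors.

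**Figure D1:**
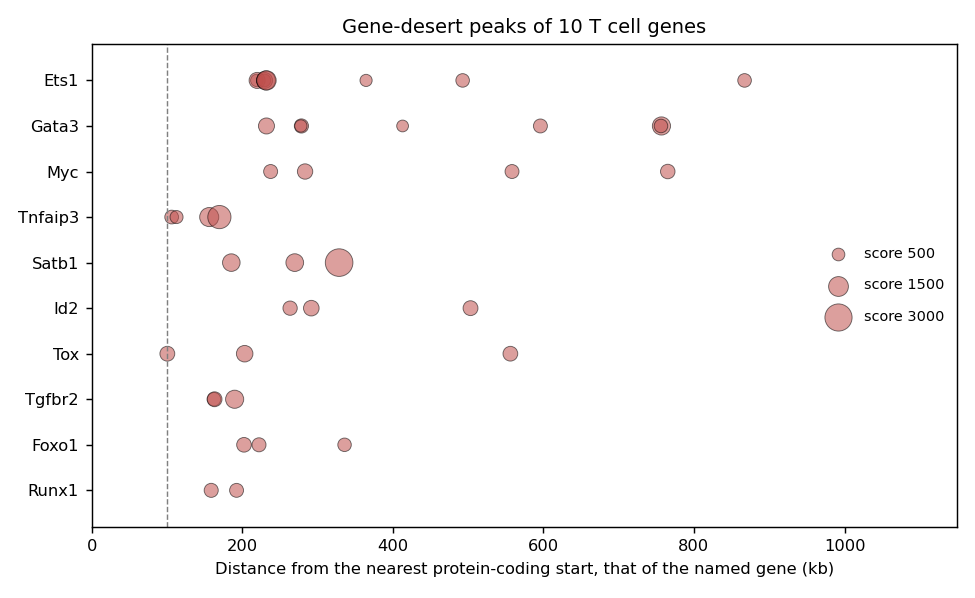
Gene-desert peaks whose nearest protein-coding start belongs to 1 of 10 T cell genes, by distance from that start (kb), with 1 row for each gene and circle area rising with the authors' score. The dashed line marks the 100 kb limit. The Ets1 peaks bunch near 219 to 232 kb, and the largest circle is the Satb1 peak at 329 kb.

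Satb1 encodes a chromatin organiser of thymocytes, and the strongest peak near a known T cell regulator lay in its desert. It was 1298 bp wide, had a score of 3100, lay 329 kb from the Satb1 start and sat inside the lncRNA gene Gm19585. Of its 32-base strings, 0.158% occurred elsewhere in the genome. A second peak in Gm19585, 270 kb from the start (269.818 kb), scored 1160 (1159.79), and the remaining one, 186 kb away, scored 1139. The same desert held 2 peaks nearer to Kcnh8, a potassium channel gene, and the one with an extended RBPJ site had a score of 1036.

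Ets1 encodes an ETS family factor needed for T cell survival and differentiation. Its 9 gene-desert peaks lay 219 to 867 kb from its start. The desert between Ets1 and Kirrel3 held 12 peaks, the most by count of the 1877 desert intervals, in 1.59 Mb of desert sequence, or 7.55 per Mb. Some smaller deserts were denser, such as that between Tnfaip3 and Olig3 with 35.5 per Mb. Of the 12 peaks, 6 formed the largest cluster of the class, within 13341 bp (chr9:32915800-32929140), all inside the lncRNA gene Gm27162. They lay in pairs, with gaps of 16, 68 and 244 bp inside a pair. Their scores were 1434, 1352, 919, 918, 518 and 476, so 4 lay above the list median of 718 (717.71) and 2 below. The extended RBPJ site was in the peak with a score of 518, not in the peaks of highest score.

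Gata3 encodes a zinc finger factor required for the T lineage. It was the nearest gene to 7 of the 8 peaks in the desert between Celf2 and Gata3, at 232 to 757 kb. Their scores were 1230.4, 917, 674, 648, 603, 459.4 and 403, so 2 of 7 lay above the list median. The strongest, chr2:9116210-9116830, was 621 bp wide, 757 kb from the start and rich in A and T, with a GC content of 28.7%. It held 4 GATA strings (AGATAA or TGATAA), 0 RBPJ cores and 0 RUNX sites.

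Myc encodes a growth regulator and is a textbook Notch target. Its 4 gene-desert peaks lay on both sides of the gene, at 238, 284, 558 and 765 kb, with scores of 650 (649.87), 825, 647 and 714. Only the peak at 284 kb passed the list median. The peak at 238 kb, chr15:62225193-62225503, lay in the lncRNA gene Pvt1 and held 1 RBPJ core. Hes1, a repressor and textbook Notch target, had 1 peak, 214 kb away, with 1 RBPJ core and a score of 625. Lef1, a TCF family factor, had 1 peak 165 kb away with a score of 520 (519.99). At Myc, Hes1 and Lef1, 5 of the 6 gene-desert peaks lay below the list median, and 47.8% of all gene-desert peaks lay at or above it. The 6 were 311 to 500 bp wide. Gene-desert peaks of 301 to 400 bp had a median score of 680.5 and those of 401 to 600 bp one of 643, both below the list median. No test was made on the 6.

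Id2 encodes an inhibitor of E proteins. Its 3 peaks had scores of 858, 763 and 689, and 2 of them lay in the lncRNA gene Gm36723. Tox, a nuclear factor of thymocyte selection, had 3 peaks with scores of 988, 759 and 747. The Tox peak of score 759 was, at 100.575 kb, among the nearest to the distance limit. Runx1, a RUNX family factor, had 2 peaks with scores of 659 and 644.

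Tnfaip3 encodes the NF-kB inhibitor A20, and the desert between it and Olig3 held some of the strongest peaks. A pair of them lay 9 bp apart, at chr10:19185373-19186056 and chr10:19186066-19186724, with scores of 2134 and 1857 and widths of 684 and 659 bp, inside the lncRNA gene Gm20139. The first lay 169.716 kb from Tnfaip3, its nearest start, and the second 169.809 kb from Olig3, the nearest start to that peak. The other 3 peaks of Tnfaip3 scored 1381, 621 and 538. Its 4 peaks lay in only 0.0704 Mb of desert sequence that is nearest to Tnfaip3. Tgfbr2, a receptor chain for TGF-beta, had 3 peaks with scores of 1226, 765 and 590 (590.28), 163 to 190 kb away (162.616 to 189.976 kb). Map3k1, a kinase of stress signalling, had a peak 1326 bp wide and 191 kb away (191.486 kb) with a score of 2342. The pair at Tnfaip3 and the peak at Map3k1 held at most 2.30% of repeated 32-base strings.

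For lists of genes, peaks were counted per Mb of the desert sequence their members own and are given beside the same density over all genes. The Poisson intervals take peaks as independent, so they are too narrow where peaks cluster, as at Ets1 and Gata3. The lists were chosen with earlier results of these data known. Of 41 T lineage regulators, 11 (26.8%) were nearest to a gene-desert peak, with 34 peaks in 6.27 Mb of desert sequence of their own, or 5.42 per Mb (exact Poisson 95% interval 3.75 to 7.58). Without Ets1 it was 4.56 per Mb. Over all genes the density was 1.22 per Mb (1.14 to 1.29). Beyond the genes above, the list's members with a peak were Foxo1 with 3 and Eomes, Ets2 and Maf with 1 each. Of 32 Notch targets, 7 (21.9%) were nearest to a peak, namely Hey1, Gata3, Myc, Ifng, Runx1, Hes1 and Lef1, at 5.03 peaks per Mb (2.93 to 8.05). This list shares Gata3, Runx1 and Lef1 with the first.

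**Figure D2:**
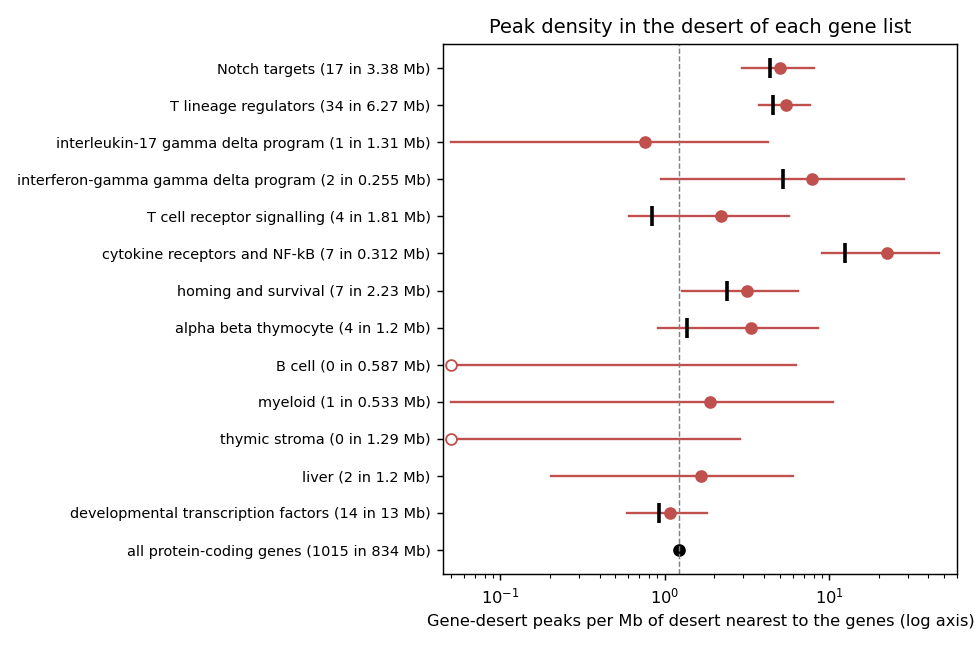
Gene-desert peaks per Mb of desert sequence whose nearest start belongs to a gene of each list (log axis), with exact Poisson 95% intervals that take peaks as independent. Black ticks give the density without the gene that has most peaks, open circles at the left edge mark lists with 0 peaks, and the dashed line is the density of 1.22 over all genes.

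Genes of migration and survival were nearest in 6 of 25 cases (24%), with 7 peaks and 3.14 per Mb (1.26 to 6.47). They were S1pr1, a receptor for exit from the thymus, with a score of 1000 (999.95), Bcl2l11, which encodes the death factor Bim, with 2 peaks and a top score of 991, Klf6 with 971, Spry2 with 868, Btg1 with 843 and Cxcr4 with 635. The list of cytokine receptors and NF-kB had 2 of 36 genes, Tnfaip3 and Tgfbr2, but 7 peaks in 0.312 Mb, or 22.4 per Mb (9.02 to 46.2). Without Tnfaip3 this was 12.4. T cell receptor signalling had Cblb with 3 peaks and Rasgrp1 with 1, and its 2.21 peaks per Mb fell to 0.838 without Cblb. Of 25 genes of the interleukin-17 program of gamma delta cells, Maf had 1 peak, at 0.762 per Mb (0.0193 to 4.24) for the list. Of 24 genes of the interferon-gamma program, which own only 0.255 Mb of desert, Ifng and Eomes had 1 peak each, at 7.85 per Mb (0.9502 to 28.3). Of 16 genes of alpha beta thymocytes, Satb1 had 3 peaks and Arpp21 had 1, at 3.32 per Mb (0.905 to 8.51), and 1.36 without Satb1. The median score of the T lineage peaks was 667, against 706 for all gene-desert peaks.

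Lists for other cells were counted in the same way. Of 40 developmental transcription factors, whose genes own 13.0 Mb of desert, 8 (20%) were nearest to a peak, at 1.07 per Mb (0.588 to 1.80), an interval that holds the density over all genes. Sox9 had 3 of their 14 peaks. The B cell and thymic stroma lists had 0 of 16 genes each, in 0.587 and 1.29 Mb, with upper limits of 6.28 and 2.86 per Mb. The liver list had Apob with 2 peaks, at 1.67 per Mb (0.202 to 6.02), and the myeloid list Csf3r with 1, at 1.88 per Mb (0.0475 to 10.4). No test was made over the lists.

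Genes next to gene-desert peaks less often had a peak close to a start than genes next to peaks 25 to 100 kb away. Of the 641 nearest genes, 62 (9.67%) had a Notch1 peak within 5 kb of a start, against 73 of 519 (14.1%) that were nearest only to peaks 25 to 100 kb away (odds ratio 0.654, 95% interval 0.448 to 0.953, two-sided Fisher's exact p = 0.0215). Over all protein-coding genes the share was 8.81%, near that of the genes next to gene-desert peaks. With a window of 20 kb the odds ratio was 0.783 (Fisher's exact p = 0.0933), and without the peaks under the median score it was 0.830 (p = 0.568), so the call did not hold there.

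Gene-desert peaks stood alone more often than other peaks. Of the 1015, 93 (9.16%) had another peak within about 13 kb, against 124 of the 720 peaks 25 to 100 kb from a start (17.2%, odds ratio 0.485, 95% interval 0.359 to 0.653, Fisher's exact p = 9.79e-07) and 23.1% of all other peaks (odds ratio 0.336, p = 1.21e-26). Within strata of equal GC content, a comparison added after the data were seen, the odds ratios were 0.716 and 0.490 (exact conditional p = 0.0355 and 2.28e-10). Peaks were also sparser overall in deserts, and the part of this in the result was not tested. By distance the share was 15% at 100 to 200 kb, 8.07% at 200 to 500 kb, 5.45% at 500 to 1000 kb and 2.20% beyond 1000 kb.

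There were 41 clusters of at least 2 gene-desert peaks, with 92 peaks in all, and 36 of them were pairs. After the 6 peaks at Ets1, the largest were 4 peaks within 9983 bp in the desert between Tle3 and Rplp1, with a top score of 2022, and 4 within 3449 bp between Tbc1d1 and Klf3, with scores of 763, 1345, 1204 and 1371. Tle3 encodes a corepressor and Klf3 a zinc finger repressor. The Map3k1 peak and a neighbour with a score of 618 made a pair within 1738 bp. Pairs also lay at Bcl2l11 (991 and 635, within 2743 bp), at Ahr, the receptor for aryl hydrocarbons, and at Tgfbr2. Of the desert intervals, 530 (28.2%) held at least 1 peak, 297 exactly 1 and 33 at least 5. After that of Ets1, the fullest was the desert between Slc39a10 and Tmeff2, with 10 peaks in 3.81 Mb, or 2.63 per Mb, and a top score of 1089.

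Long non-coding RNA (lncRNA) genes lay under 140 gene-desert peaks (13.8%), much as under 104 of 720 peaks 25 to 100 kb from a start (14.4%, odds ratio 0.948, 95% interval 0.715 to 1.26, Benjamini-Hochberg adjusted p = 0.726 by Fisher's exact test over 2 comparisons). Against all other peaks, of which 8.91% overlapped one, the share was higher (odds ratio 1.64, Fisher's exact adjusted p = 5.20e-06). Of those other peaks, 3380 lay in protein-coding gene bodies or within 1 kb of a start, where the rule allows no gene-desert peak. This comparison thus sets unlike places side by side and cannot show a preference for lncRNA genes. Start sites of lncRNA genes were rarer: 15 gene-desert peaks (1.48%) lay within 1 kb of one, against 30 of the peaks 25 to 100 kb from a protein-coding start (4.17%, odds ratio 0.345, 95% interval 0.171 to 0.668, Fisher's exact adjusted p = 0.00129). That difference was not called within GC strata (odds ratio 0.544, 95% interval 0.255 to 1.11, exact conditional adjusted p = 0.199) or when the lower-scoring peaks were left out (0.440, adjusted p = 0.119 by Fisher's exact test). The genes typed as lncRNA with most peaks were Gm27162 at Ets1 with 6, and Gm19585 at Satb1, Gm20139 at Tnfaip3, Zswim6 and Gm14005 with 3 each. Zswim6 counts here by its GENCODE M21 type only, since RefSeq lists it as a protein-coding gene. Of the 15 peaks at a start, named ones included that of Dubr (score 1099), that of Gm38839 with an extended RBPJ site near Gcfc2 (1029), and those of Gm27162 (1434 and 1352). In all 863 gene-desert peaks overlapped no annotated gene of any type.

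Taken as 1 class, gene-desert peaks did not differ detectably in score from other peaks. Their median was 706, with quartiles of 643 and 872, against 720.3 for peaks 25 to 100 kb from a start and 719 for all other peaks. At or above the list median were 485 (47.8%), where 50% of all peaks are by definition, against 50.6% of the peaks at 25 to 100 kb (odds ratio 0.895, 95% interval 0.736 to 1.09, adjusted p = 0.263 by Fisher's exact test). In the upper quartile were 230 (22.7%), where 25% of all peaks are, against 25.7% (odds ratio 0.847, 0.674 to 1.07, Fisher's exact adjusted p = 0.263). Against all other peaks the odds ratios were 0.898 (0.783 to 1.03, Fisher's exact adjusted p = 0.129) and 0.856 (0.726 to 1.01, adjusted p = 0.122). With the limit at 200 kb, both comparisons with all other peaks passed (0.814 and 0.783, Fisher's exact adjusted p = 0.0123 for each). By distance the share at or above the list median was 52.8% at 100 to 200 kb and 45.8% at 200 to 500 kb. It was 47.7% at 500 to 1000 kb and 38.5% beyond 1000 kb, and no test was made over these distances.

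**Figure D3:**
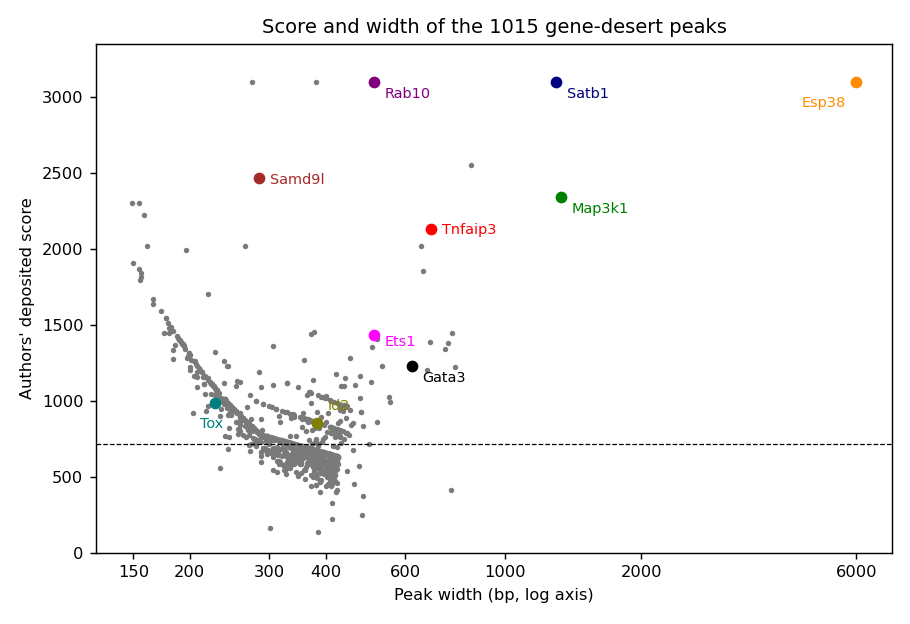
The authors' score of each of the 1015 gene-desert peaks against its width (bp, log axis), with the top peak of 10 nearest genes named. The dashed line is the list median of 717.71. Up to about 400 bp the score falls along a narrow curve as width rises, while most of the few peaks over 600 bp score well above the median.

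Score and width were tied in a way that bears on every ranking by score. Among the 752 gene-desert peaks at most 400 bp wide, the score fell with width (Spearman rho -0.69 over peaks, which are not replicates). Among the 263 wider ones rho was 0.35. All other peaks showed the same, with -0.62 and 0.45. By width classes chosen after the data were seen, the median score was 1438 for the 42 peaks of at most 200 bp, 885 at 201 to 300 bp, 680.5 at 301 to 400 bp, 643 at 401 to 600 bp and 1450.3 for the 15 peaks over 600 bp. In all other peaks these medians were 1465, 898, 686, 653 and 1580 (1579.93), so that within a width class the medians lay close together. Of the 25 gene-desert peaks of highest score, 12 were at most 200 bp wide and 7 were over 600 bp wide.

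The 15 wide peaks and the narrow ones are described here by where they lay. Of the wide ones, 7 (46.7%) had another peak within about 13 kb, 7 held an RBPJ core and 7 a RUNX site in their central 400 bp, and 7 overlapped a lncRNA gene. Their nearest genes were Satb1, Map3k1, Tnfaip3 (2 peaks), Olig3, Gata3, Tgfbr2, Rplp1, Psmg1, Tbc1d1 (2 peaks), Zfp507, Gm11361, Gdi2 and Esp38. Of the 42 narrow ones, 3 (7.14%) had another peak within about 13 kb, 14 held an RBPJ core, 5 a RUNX site in the same 400 bp windows, which reach beyond these peaks, and 5 overlapped a lncRNA gene. All other peaks showed the contrast in neighbours too, with another peak within that distance for 66.0% of wide and 10.4% of narrow ones. An RBPJ core was in 29.6% of wide and 36.8% of narrow other peaks, a RUNX site in 26.4% and 17.6%, and a lncRNA gene lay under 15.1% and 4.8%. The narrow peaks with the highest scores lay next to Klhl13 (2305), Tusc1 (2300.3) and Tex13c3 (2226). Both classes were set after their values were seen, and no test was made on them.

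Some of the highest scores came from repeated sequence. Of the 5 gene-desert peaks with a score of exactly 3100, a value shared by 36 nuclear peaks, the one at Satb1 was almost free of repeated strings. In the other 4 the share of 32-base strings found more than once in the genome was 55.8% (Rab10), 15.1% (Esp38), 75% (Mc2r) and 49.1% (Gm8797). The Esp38 peak was 5996 bp wide with a GC content of 64.0% (63.976%), and it covered CT010467.1, an annotated ribosomal RNA gene. The Samd9l peak, with a score of 2466, shared 48.5% of its 20-base strings with that peak, and no other nuclear peak shared over 5%. Over the whole class repeated sequence did not differ detectably from the peaks nearer to genes: 299 peaks (29.5%) held any repeated 32-base string, against 30.7% at 25 to 100 kb (odds ratio 0.943, 0.762 to 1.17, Fisher's exact adjusted p = 0.751).

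Deserts hold fewer peaks than the rest of the genome. Desert sequence covers 834 Mb, 31.5% of the genome without assembly gaps, and held 1.22 peaks per Mb against 2.70 in all other sequence (exact Poisson 95% interval 2.62 to 2.78). On autosomes the values were 1.38 (1.29 to 1.47) and 2.87 (2.79 to 2.95). With distance from a start the density was 1.28 per Mb at 100 to 200 kb (320 peaks), 1.14 at 200 to 500 kb (384), 1.27 at 500 to 1000 kb (220 peaks) and 1.24 beyond 1000 kb (91), with overlapping intervals. The farthest peak lay 2691 kb from any start, in the desert of Pcdh9, a protocadherin gene, with a score of 639.5. Among autosomes the density ran from 0.996 on chromosome 6 to 1.96 on chromosome 17. Chromosome X held 27 gene-desert peaks at 0.466 per Mb (0.307 to 0.678) and chromosome Y 0 in 59.5 Mb (upper limit 0.0620). Whole chromosome X was also low, with 0.599 peaks per Mb of any class.

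Gene-desert peaks were poor in GC. Their median GC content was 37.8%, against 42.7% for peaks 25 to 100 kb from a start and 45.1% for all other peaks. Above the list median of 43.9% were 206 of 1015 (20.3%), against 44.03% of the peaks at 25 to 100 kb (odds ratio 0.324, 95% interval 0.260 to 0.403, adjusted p = 1.81e-25 by Fisher's exact test) and 56.2% of all other peaks (odds ratio 0.199, adjusted p = 1.57e-100). Over 2083791 tiles of 400 bp that cover the deserts the median was 39%. By distance the median was 41.2% at 100 to 200 kb, 38.4% at 200 to 500 kb, 35.2% at 500 to 1000 kb and, beyond 1000 kb, 33.3% (33.25%). Over all desert tiles, peak density was 1.85 per Mb under 30% GC (1.496 to 2.26) and 1.68 at 30 to 35% (1.48 to 1.90), against 1.04 at 35 to 40% (0.917 to 1.17), 1.10 at 40 to 45% (0.962 to 1.251), 0.960 at 45 to 50% (0.792 to 1.15) and 1.248 above 50% (0.929 to 1.64, 51 peaks). Among tiles and peaks at most 50% soft-masked, which excludes most interspersed repeats, these 6 densities were 1.95, 2.02, 1.54, 1.62, 1.51 and 2.19, so there the highest value was that of the tiles above 50% GC, with 47 peaks.

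**Figure D4:**
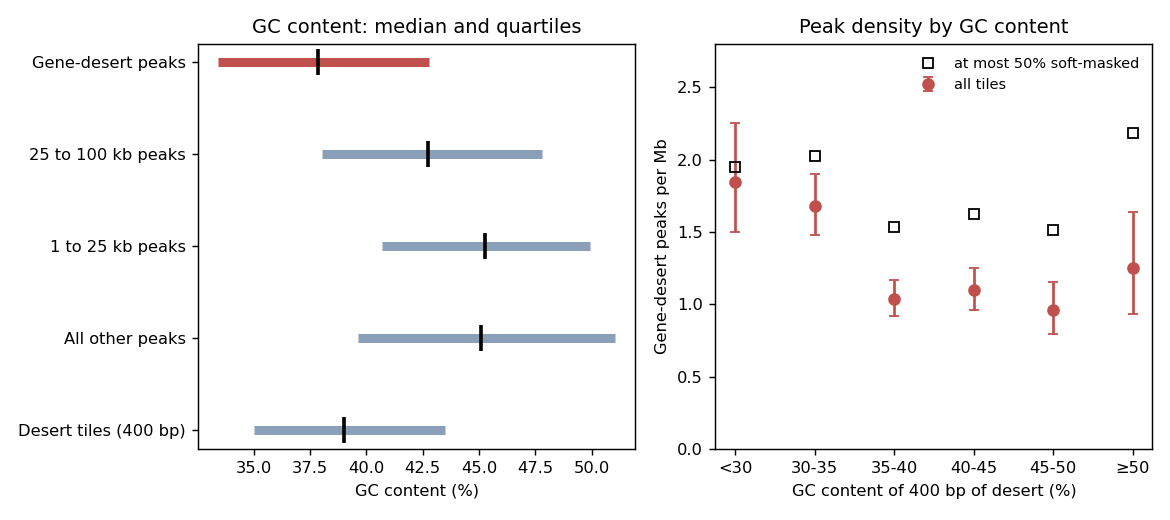
Left, GC content (%) of gene-desert peaks, other classes of peaks and 400 bp tiles of desert sequence, as median (black tick) and quartiles (bar). Right, gene-desert peaks per Mb of desert by GC content, with exact Poisson 95% intervals, and the same for tiles at most 50% soft-masked. Gene-desert peaks have the lowest median, 37.8%, and density over all tiles is highest under 35% GC, while among tiles at most 50% soft-masked it is highest, 2.19, above 50% GC.

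Width differed from that of all other peaks as counted, and soft-masked sequence showed no detectable difference from the peaks 25 to 100 kb from a start. Wider than the list median of 370 bp were 44.6%, against 49.4% at 25 to 100 kb (odds ratio 0.824, 0.677 to 1.003, adjusted p = 0.102 by Fisher's exact test) and 50.8% of all other peaks (odds ratio 0.780, adjusted p = 0.000757). Within GC strata the second was no longer called (0.877, exact conditional adjusted p = 0.233). Over 50% soft-masked were 10.7% against 10.1% (odds ratio 1.07, 0.771 to 1.48, Fisher's exact adjusted p = 0.751). Of the desert tiles, 36.5% were over 50% soft-masked, and of the peaks' own 400 bp windows 10.5%.

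Short strings known as sites of transcription factors differed in frequency from other peaks as counted, and none passed the test among peaks of like GC content. Of 19 motifs sought on both strands of the central 400 bp, 2 (10.5%) were more frequent in gene-desert peaks than at 25 to 100 kb and 6 (31.6%) less frequent, at an adjusted p under 0.05 by Fisher's exact test. The window is fixed and reaches beyond peaks narrower than 400 bp, and 752 of the 1015 were at most 400 bp wide. The RBPJ core was in the window of 280 gene-desert peaks (27.6%, 24.9 to 30.4), against 33.8% (33.75%) at 25 to 100 kb (odds ratio 0.748, 95% interval 0.605 to 0.925, Fisher's exact adjusted p = 0.0183). The other 5 with fewer matches were RUNX (14.3% against 21.3%, or 21.25%), ETS (3.05% against 6.67%), the E-box of E proteins (CAGGTG or CAGCTG, 26.5% against 37.8%), that of HES and MYC proteins (CACGTG or CACGCG, 4.24% against 7.36%) and KLF (GGGTGTGG or GGGCGTGG, 1.97% against 5.42%). GATA strings were in 50.8% against 38.9%, and STAT strings (TTCNNNGAA) in 14.8% against 10.7%. The call for STAT (odds ratio 1.45) was lost with the limit at 50 kb (1.35), with all genes (1.14), at or above the median score (1.42), in the central 200 bp (1.58) and in whole peaks (1.35). That for the RBPJ core was lost with the limit at 50 kb (0.762), with all genes (0.658), without the lower-scoring peaks (0.860) and in the central 200 bp (0.801). With all genes those for RUNX, ETS, GATA, KLF and the E-box of HES and MYC were lost too. RUNX also lost its call in the central 200 bp, ETS with the limit at 50 kb, and the E-box of HES and MYC with that limit and in peaks of low repeat content.

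Within strata of 5 percentage points of GC content, 0 of 18 motifs passed the adjusted exact conditional test against the peaks at 25 to 100 kb, where 8 of 19 passed without strata. The motif not tested in strata, that of NRF1, was in 0 peaks of both groups. For the RBPJ core the odds ratio was then 0.856 (0.684 to 1.07, exact conditional adjusted p = 0.459), for RUNX 0.805 (0.611 to 1.06), for ETS 0.611 (0.361 to 1.02) and for GATA 1.16 (0.940 to 1.44). Before adjustment, 0 had p under 0.05. Against all other peaks, 6 motifs (31.6%) were more frequent and 10 (52.6%) less frequent, and 0 of 19 in GC strata, where GATA and CTCF had unadjusted exact p = 0.0184 and 0.0150. The CTCF string was in 2 gene-desert peaks (0.197%) and 1.78% of all other peaks (odds ratio 0.109, Fisher's exact adjusted p = 4.34e-05).

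**Figure D5:**
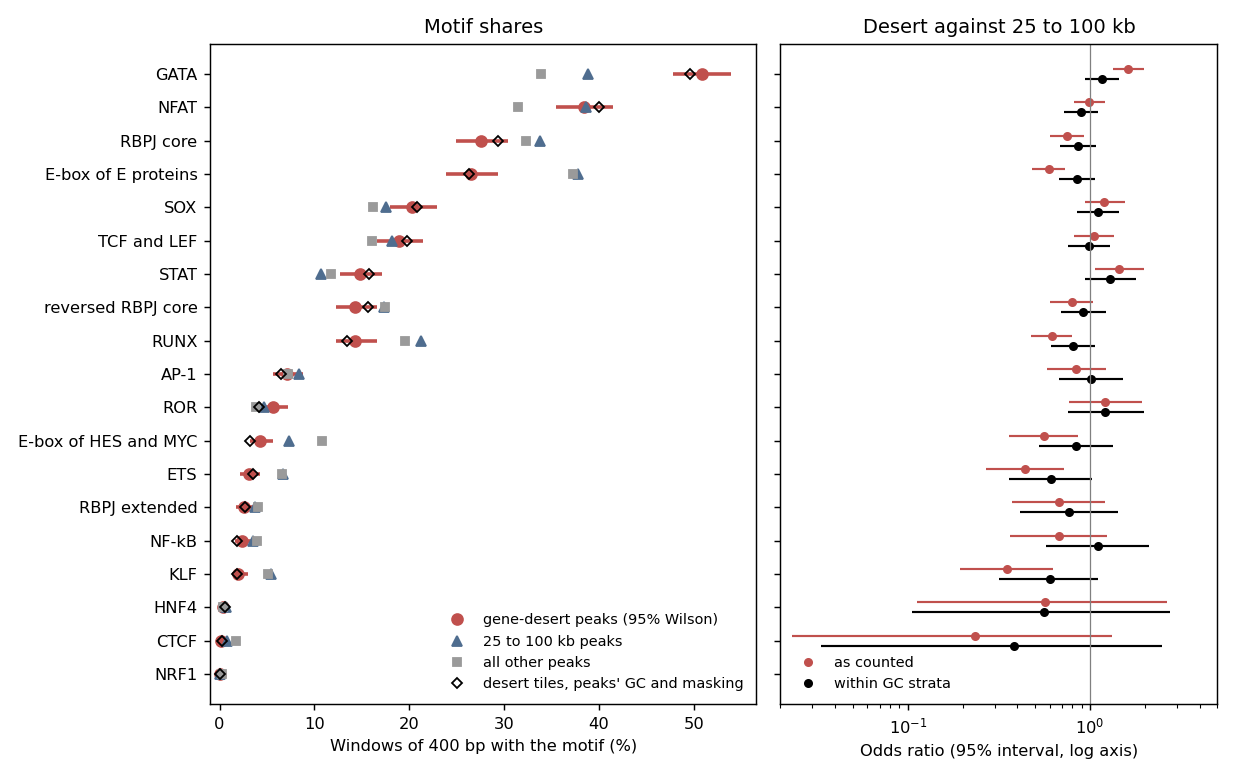
Left, share of 400 bp windows with each of 19 motifs in gene-desert peaks (95% Wilson intervals), in peaks 25 to 100 kb from a start, in all other peaks and in desert tiles weighted to the peaks' GC content and masking. Right, odds ratios of gene-desert peaks against those at 25 to 100 kb, as counted and within GC strata (95% intervals, log axis). Most red circles sit near the open diamonds, and within strata no motif passed the test.

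The deserts themselves held most of these strings at much the same rate. The RBPJ core was in 29.1% of all desert tiles and in 29.4% once tiles were weighted to the peaks' GC content and masking, against 27.6% of the peaks. The extended RBPJ site was in 26 peaks (2.56%, 1.75 to 3.73), against 2.71% of weighted tiles, and the reversed core AAGGGT, a control string, in 14.3% against 15.7%. Ratios of peaks to weighted tiles above 1.3 were seen for ROR (TAGGTCA, 1.35, with 57 peaks), the E-box of HES and MYC (1.32, with 43) and NF-kB (1.31, with 24). The lowest ratios were those of NRF1 (0, with 0 peaks), CTCF (0.681, with 2) and HNF4 (CAAAGTCCA, 0.727, with 4). A match is a string in the window and not by itself a bound site.

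The distance limit cut through a continuous range. Just inside were the peaks at Ift57 (100.128 kb, score 1094), Tox (100.575 kb) and Hey1 (100.576 kb, score 1266), and just outside those at Alcam (99.565 kb, score 1274), Hey1 (99.549 kb, score 1579) and Fgf10 (99.496 kb, score 702). Hey1, a repressor and Notch target, had 1 peak on each side of the limit.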

How the data were processed

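Per the submitters' processing notes, reads were handled with Bowtie 1.0.0 and SAMtools 0.1.18 on mm10. Peak names in the deposited list start with MACS, whose version, settings and use of the input the sources used here do not give, and libraries had 18 PCR cycles, per the labels' protocols. The deposited score is the authors' own value per peak, read here as given. Of 5913 peaks, 3 mitochondrial ones were left out. Depth is unknown. Positions were set on GENCODE M21 genes with Python 3.11.15, and sequence was read from RefSeq GRCm38. Fisher's exact test, two-sided and checked on simulated data, compared counts of peaks, with Benjamini-Hochberg adjustment over the 2 score, 4 property, 2 lncRNA and 19 motif comparisons and a threshold of 0.05. GC strata used an exact conditional test in R 4.3.3, chosen after the data were seen. Desert tiles were counted in full. Wilson and Poisson intervals are 95%. Peaks named were the 12 of highest score, those of the 5 fullest deserts, the 5 farthest, up to 8 at lncRNA starts, up to 6 with extended RBPJ sites, 23 followed genes and up to 4 genes a list. Those on chromosome 18 are given without sequence and not all other sequences are shown, and 1 gene list is not reported here. Exceptions, such as wide, narrow and clustered peaks and further genes of a list, were chosen after their values were seen. The members and lists were chosen with earlier results of these data known. Alternatives moved the distance limit, annotation, score range, repeat content and windows.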

Additional observations from a re-analysis of the deposited data

How the results depend on the processing

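Of 255 planned values under alternatives, 198 kept their direction and side of the threshold, or stayed near the count reported. The number of gene-desert peaks was 222 with all GENCODE genes in place of protein-coding ones and 485 at or above the median score. Density was 0.582 per Mb at or above the median score and 1.93 per Mb outside soft-masked repeats. With all GENCODE genes, odds ratios against peaks at 25 to 100 kb turned to 1.10 for the upper score quartile, 1.11 for width, 0.880 for soft-masking and 1.15 for repeated strings; against all other peaks they were 1.01 for the upper quartile and 0.870 for width, the last no longer called. At or above the median score they turned to 1.02 for repeated strings and 1.26 for lncRNA bodies, and lncRNA starts (0.440) lost their call. Newly called were the upper quartile against 25 to 100 kb with a 50 kb limit (0.736) and, with a 200 kb limit, width against 25 to 100 kb (0.754) and, against all other peaks, the score median (0.814) and upper quartile (0.783). In GC strata odds ratios against 25 to 100 kb turned to 1.06 for the score median, 0.957 for soft-masking and 1.21 for lncRNA bodies, and against all others to 1.11 and 1.06 for the score median and upper quartile, 0.867 for soft-masking and 0.932 for repeated strings; lncRNA starts (0.544) and width against all others (0.877) lost their call. Nearest genes lost theirs at 20 kb (0.783) and at or above the median score (0.830). None of the results that turned was called in either setting. Motifs more and less frequent against 25 to 100 kb numbered 1 and 3 with the 50 kb limit, 0 and 1 with all genes, and 0 and 0 in GC strata; 1 was more frequent at or above the median score, in the central 200 bp and in whole peaks. Against all others they numbered 2 and 5 with all genes, 3 and 6 in the central 200 bp and 0 and 0 in GC strata; 6 were less frequent at or above the median score, and 2 more frequent in whole peaks. Beyond fewer peaks with all genes or higher scores, the cause was not tested. The score median cannot be compared among peaks at or above it, so that alternative was not run. No paired analysis was possible because there is 1 Notch1 library. A peak list without depth or input values leaves unknown how many reads stand behind a score.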

Other observations

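Of the 1015 gene-desert peaks, 11 overlapped a protein-coding gene of the RefSeq annotation, which was not used to define them. Zswim6, with 3 peaks and a top score of 1048, is typed as a processed transcript in GENCODE M21. None of the gene-desert peaks overlapped any of the 1604 regulatory elements that RefSeq lists for the mouse, against 1 peak of 720 at 25 to 100 kb from a start, 4 of 795 at 1 to 25 kb and 12 of 3380 in gene bodies or within 1 kb of a start. The 5 peaks farthest from a start lay next to Pcdh9 (2691 kb), Pcdh17 (2074 kb), Slc39a10 (1989 kb), G6pd2 (1886 kb) and Sel1l (1874 kb), with scores of 639.5, 858, 165, 936 and 579. Pcdh9 and Pcdh17 encode protocadherins, which are cell adhesion proteins. The desert between Nmbr and Cited2 held 8 peaks in 2.76 Mb, the strongest with a score of 1707, 245 kb from Nmbr. The desert between Celf4 and Pik3c3 held 7 in 4.32 Mb, with a top score of 1796. Within 500 kb of the first sequenced base of a chromosome lay 7 gene-desert peaks.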
